A study of Mus musculus with 3 samples.

Results

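The genes described here encode 8 effectors of RNA silencing: the Argonautes Ago1, Ago2 and Ago4, the GW182 proteins Tnrc6a, Tnrc6b and Tnrc6c, the deadenylase subunit Cnot6 and the poly(A)-binding protein Pabpc1. They were examined as possible targets of their own pathway in the mouse embryonal carcinoma line P19. RNA held by AGO2 had been recovered by HITS-CLIP, in which RNA is crosslinked to protein, an antibody (here clone 2D4) recovers the protein, and the RNA fragments that come with it are sequenced. The 3 libraries formed 1 group, CLIP_AGO2, with no control or treated group. The deposited values were 4 lists of peaks, 1 each from the callers CIMS, Piranha, Pyicoclip and PIPE-CLIP, and each list covered the whole series. A peak belonged to a gene if its midpoint lay in the RefSeq span of the gene in mm10, on either strand. By this rule the 8 genes held 70 of 6911 peaks, and none of the 70 lay in the span of a further gene.

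The genes were chosen by their peaks, that is by midpoints of listed peaks in their spans, so the presence and number of their peaks are a description, and no test was run on them. No value per library was used, so depth is unknown and the spread of a value over the libraries cannot be given. The 4 lists come from the same libraries and are not replicates of each other. Peak counts below are sums over lists, in which 1 site can count once per caller. It can count more often where a caller lists overlapping peaks, so a peak count is not a number of sites. Of 8 marker genes of pluripotent cells, Pou5f1 held 1 peak and Lin28a 12, while Sox2, Nanog, Sall4, Utf1, Dppa4 and Tdgf1 held none. Of 6 markers of other lineages 0 held a peak, and of all protein-coding genes 9.77% did. Counts this small do not tell the cell type, and a peak is not a measure of expression.

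In mammals an Argonaute protein carries a microRNA, which pairs through its seed with sites that lie mostly in 3′ untranslated regions. Proteins of the GW182 family, encoded by the Tnrc6 genes, bind Argonaute through repeats of glycine and tryptophan and recruit the CCR4-NOT and PAN2-PAN3 deadenylases. These shorten the poly(A) tail, to which PABPC1 is bound, and repression and decay of the messenger RNA follow. The question put to these genes was where AGO2 was found on the RNAs of its own machinery.

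All 8 genes had peaks in at least 2 lists, against 3.99% of the 21900 annotated protein-coding genes, a difference fixed by the choice of genes. Cnot6 held 16 peaks, Ago2 14, Tnrc6a 12, Ago1 8, Tnrc6b 7, Pabpc1 7, Tnrc6c 4 and Ago4 2. PIPE-CLIP gave 49 of the 70 and found clusters in 7 of the genes, against 7.12% of protein-coding genes. Pyicoclip gave 17 and found all 8 genes, against 4.54%. Piranha gave 4 in 3 genes, against 2.89%, and CIMS gave 0, with a peak in 0.279% of protein-coding genes. Tnrc6a and Tnrc6b were in 3 lists, as were 0.973% of protein-coding genes. The spans of the 8 genes ran from 13924 to 229774 nt, with a median of 63712 nt against 17146 nt over all protein-coding genes, so a midpoint had more room to fall in them. The part of span length in these counts was not tested.

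**Figure D1:**
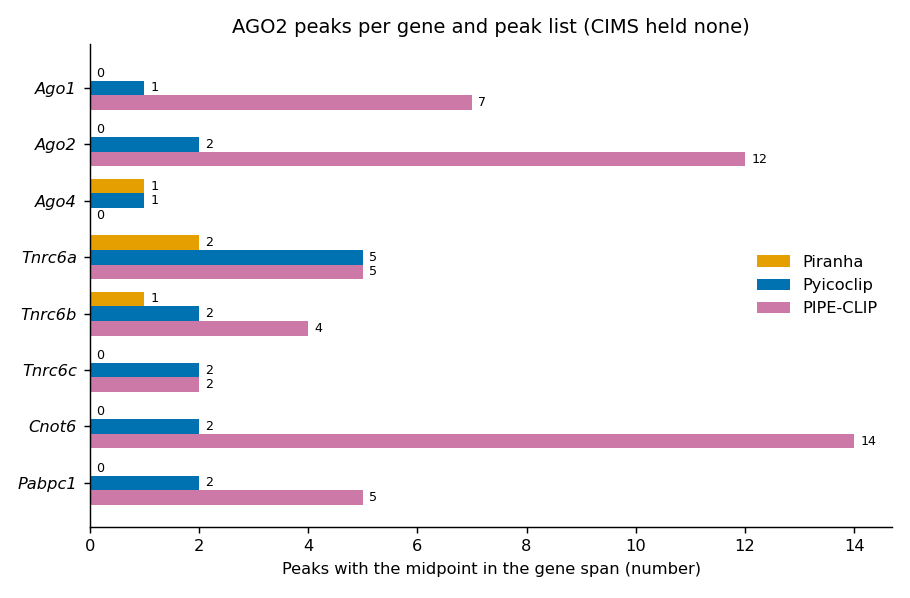
Number of AGO2 peaks with the midpoint in the span of each of the 8 genes (x axis), by gene (y axis) and peak list (bar colour). PIPE-CLIP reached 14 clusters in Cnot6 and 12 in Ago2, while Pyicoclip and PIPE-CLIP gave 5 each in Tnrc6a.

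Ago2, which encodes the Argonaute that was pulled down and that can cut a fully matched target, held 12 PIPE-CLIP clusters and 2 Pyicoclip peaks on chromosome 15. The span ran from 73101625 to 73184947. With the strand of the peaks giving the direction, 9 of the 12 clusters lay in the last 10% of the span, with 1 of the Pyicoclip peaks, in a stretch of 4237 nt from 73102316 to 73106552. The highest-scoring cluster, at 73104469 to 73104674, had a PIPE-CLIP score of 31, which is at percentile 93.7 of that list. Scores were given by the authors without a unit, and the percentile is the share of peaks of the same list with a score at or below it. That cluster overlapped no other list.

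A second caller placed AGO2 at 2 of the Ago2 sites. At 73105524 to 73105671 a Pyicoclip peak scored 15 and the PIPE-CLIP cluster inside it 25. At 73130857 to 73130996, 64.8% of the way along the span, a Pyicoclip peak with no strand scored 11 and the cluster inside it 20. The remaining clusters of Ago2 scored 10 to 31 and were in PIPE-CLIP alone. A further cluster, at 73101528 to 73101601 with a score of 18, ended 24 nt outside the span and was not counted, and it was the nearest peak outside any of the 8 spans, with no other within 2000 nt.

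Ago1, a second Argonaute that binds microRNAs, has a span of 33696 nt on the minus strand of chromosome 4, from 126435012 to 126468707. Its 7 PIPE-CLIP clusters and 1 Pyicoclip peak ended between 81 and 3965 nt from the 3′ end of the span, so the other parts of the gene held none. The cluster at 126435442 to 126435678 scored 43, the highest PIPE-CLIP score of the 8 genes and at percentile 96.9 of the list. The Pyicoclip peak there, at 126435453 to 126435671, covered 219 of its 237 nt but scored 10, the lowest score in that list. The cluster at 126437944 to 126438216 scored 28, and the 5 others scored 12 to 18. This site near the end of Ago1 was thus near the top of one list and at the floor of another.

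Ago4 lies beside Ago1 on chromosome 4, with a span from 126489487 to 126533586 on the minus strand, and held 1 site. A Piranha peak of 20 nt at 126512421 to 126512440 and a Pyicoclip peak of 23 nt at 126512429 to 126512451 shared 12 nt, and each scored 11. The site lay 48.0% of the way along the span, on the strand of the gene, and held no PIPE-CLIP cluster. Among Pyicoclip peaks of at most 30 nt in 1 protein-coding span, 51.3% of 396 lay on the strand of the gene, against 88.8% of 429 wider peaks. Ago3, the fourth member of the family and a neighbour of Ago1 and Ago4, held no peak in any list.

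The GW182 genes lie on plus strands, and 9 of their 12 sites were found by at least 2 callers. Tnrc6a, on chromosome 7 from 123031101 to 123195296, held 2 sites of 3 lists, the most of any of the 8 genes. At the first, 123193484 to 123193659, the Pyicoclip peak scored 30, the PIPE-CLIP cluster 27 and the Piranha peak 15, and the 3 peaks had 20 nt in common, at 123193601 to 123193620. These scores were at percentiles 94.6, 91.2 and 80.5 of their lists. The second site lay just upstream, at 123193281 to 123193405, with scores of 15, 14 and 11 in the same order and 13 nt in common. Another site nearby, at 123192843 to 123193070, was a PIPE-CLIP cluster alone with a score of 24. All 7 of these peaks lay in a stretch of 817 nt that ended 1637 nt before the end of the span.

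Tnrc6a also held peaks further upstream, outside the last 10% of the span. A Pyicoclip peak scoring 17 at 123169850 to 123170135 overlapped a PIPE-CLIP cluster scoring 24. At 123162512 to 123162592 both callers gave the same interval, with scores of 12 in Pyicoclip and 11 in PIPE-CLIP. A Pyicoclip peak of 409 nt, the widest of the 70, lay at 123170421 to 123170829 with a score of 11 and overlapped no other list. The 5 Pyicoclip peaks of Tnrc6a were matched or exceeded in number by 13 of the 995 protein-coding genes with a Pyicoclip peak, itself included. In that ranking, overlapping Pyicoclip peaks of 1 site count separately, as in Ddx5, which also has 5.

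Tnrc6b, on chromosome 15 from 80711313 to 80941086, held 4 sites with scores of 10 to 12, close to the lowest score of 10 that each list holds. A pair of sites was found by Pyicoclip and PIPE-CLIP, at 80936993 to 80937059 and at 80940670 to 80940747, and the second ended 339 nt before the end of the span. Another, at 80917980 to 80918026, was found by Piranha and PIPE-CLIP. Tnrc6c, on chromosome 11 from 117653703 to 117763439, held 2 sites, each with a Pyicoclip peak and a PIPE-CLIP cluster. Their scores were 13 and 10 at 117722975 to 117723111, in Pyicoclip and PIPE-CLIP, and 10 in both at 117761840 to 117761925. At least 2 callers thus met at 3 of 4 sites in Tnrc6b and 2 of 2 in Tnrc6c, as at 4 of 6 in Tnrc6a, where scores were higher.

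Cnot6 encodes a catalytic subunit of the CCR4-NOT deadenylase. Its span of 41905 nt lies on the minus strand of chromosome 11, from 49671497 to 49713401. It held 14 PIPE-CLIP clusters, 9 of them in the last 10% of the span together with both of its Pyicoclip peaks, in a stretch of 2890 nt. The 2 sites of both callers, at 49673601 to 49673700 and 49675203 to 49675324, had PIPE-CLIP scores of 25 each and Pyicoclip scores of 11 and 10. Unlike in Ago1, clusters also lay near the start of the gene: those at 49712155 to 49712225 and 49711821 to 49711971 were in the first 10% of the span and scored 22 and 20, and the next, at 49708899 to 49709017, scored 21. These 3 clusters were in PIPE-CLIP alone. The 14 clusters were among 391 minus-strand and 28 plus-strand clusters of chromosome 11, which held 12.9% of the PIPE-CLIP list.

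The protein-coding genes with the counts most like those of Cnot6 over the 4 lists were Plekhm1, with 1 Pyicoclip peak and 14 clusters, and Msi2, with 2 and 13. Each had a summed absolute difference of 1 peak, and both lie on chromosome 11, on the minus strand. Pmepa1 on chromosome 2 followed with a difference of 3. Likeness here is over 4 lists of the same libraries, and a gene on another strand had less chance to match, as given below.

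Pabpc1, the main cytoplasmic poly(A)-binding protein, has a span of 13924 nt on chromosome 15, from 36595658 to 36609581, and its peaks were spread over it. The PIPE-CLIP clusters scored 23 at 36608586 to 36608692, near the start in the direction of the peak strand, 21 at 36602845 to 36602905, 21 at 36600609 to 36600678, 12 at 36598952 to 36599047 and 10 at 36602908 to 36602984. Pyicoclip overlapped the cluster at 36600609, with a score of 11. Its other peak, also scoring 11, lay 251 nt from the end of the span at 36595909 to 36596007 and was the only one of the 7 in the last 10%. Pabpc1 has processed copies elsewhere in the genome, so the copy of origin of its reads is uncertain.

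**Figure D2:**
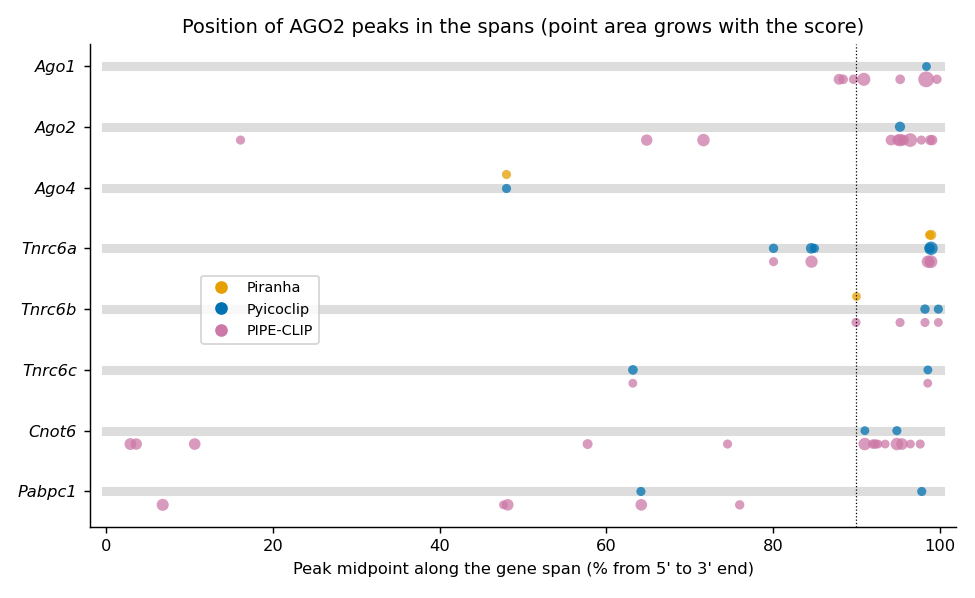
Midpoints of the stranded AGO2 peaks of each gene (y axis) along its span, in percent from the 5′ to the 3′ end (x axis), with point area growing with the score and colour giving the list. The dotted line marks 90% of the span. Points of Ago1, Ago2, Cnot6, Tnrc6a and Tnrc6b crowd towards the right end, and those of Pabpc1 and the 1 site of Ago4 do not.

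Over the 8 genes, 41 of the 69 peaks that could be placed lay in the last 10% of the span, or 59.4%, against 37.2% of 5099 placed peaks of all protein-coding genes. In PIPE-CLIP it was 29 of 49 for the 8 genes and 42.5% for all, in Pyicoclip 10 of 16 and 34.8%, and in Piranha 2 of 4 and 20.6%. The first 10% of the span held 3 peaks, 2 in Cnot6 and 1 in Pabpc1. The last 10% covers more nt in a longer span, and the spans were longer here, with a median of 63712 nt against 17146 nt. Peaks on the strand opposite to the gene were included in the shares for all genes. The part of either in these shares was not tested. Peaks of 1 gene are not independent, and 21 of the 41 were in Ago2 and Cnot6. With Ago2 left out the share was 55.4%, and with Pabpc1 left out 64.5%, the lowest and highest of the 8 such values. Exons were not used, so it was not measured whether these sites lie in 3′ untranslated regions.

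Median scores of the 8 genes were at or just below those of the 3 lists that held their peaks. The median was 14 for their PIPE-CLIP clusters and 14 for the list, 11 for their Pyicoclip peaks against 12, and 11 for their Piranha peaks against 12. A PIPE-CLIP score of at least 20 was reached by 18 of 49 clusters of the 8 genes, or 36.7%, against 21.2% of the list. In Pyicoclip the 1 peak over that score, in Tnrc6a, compares with 13.9% of the list. Above the list median were 29.4% of their Pyicoclip peaks, against 45.8% of that list, and 49.0% of their PIPE-CLIP clusters, against 44.2%. The highest score of the 8 genes was 43, against 1542 in the same PIPE-CLIP list. Their Pyicoclip peaks were wide, with a median of 115 nt against 29 nt in the list, which also holds peaks outside protein-coding spans. Of stranded Pyicoclip peaks in 1 span, of a protein-coding gene with a known strand, 429 of 825 were over 30 nt. PIPE-CLIP clusters of the 8 genes had a median of 92 nt against 85 nt in the list.

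The strand of a gene went with how its peaks were found. A strand for 6 of the 8 genes was taken from the RefSeq promoter table, and all 49 stranded peaks of these 6 lay on the strand of the gene. Of the 49, 32 were PIPE-CLIP clusters, 13 Pyicoclip peaks and 4 Piranha peaks. They were set beside all stranded peaks that lay in 1 gene span only, of a protein-coding gene with a known strand. There the share was 98.2% of 2100 in PIPE-CLIP, 70.8% of 825 in Pyicoclip and 58.5% of 496 in Piranha. For Ago2 and Pabpc1 no strand was used, and their 20 stranded peaks were on the minus strand. PIPE-CLIP clusters numbered 38 in the 5 genes with minus-strand peaks, which are Ago1, Ago2, Ago4, Cnot6 and Pabpc1, and 11 in the 3 Tnrc6 genes, on the plus strand. Pyicoclip, in contrast, gave 8 peaks in those 5 genes and 9 in the 3 Tnrc6 genes.

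The same imbalance ran through the whole PIPE-CLIP list. A cluster was held by 12.2% of 8762 minus-strand protein-coding genes and by 1.98% of 8730 plus-strand genes, whereas Pyicoclip peaks were held by 4.51% and 4.56%. Cluster numbers therefore compare only between genes of 1 strand. Over all protein-coding genes, 6 had at least the 14 clusters of Cnot6 and 8 at least the 12 of Ago2, each gene itself included. Ranks by strand leave out genes with no strand in the promoter table, which covers 17492 of the 21900, and Pmepa1, with 14 clusters, is among those left out. Within that limit, on the minus strand, 1 other gene had at least as many clusters as Cnot6, 3 genes at least as many as Ago2, placed here by the strand of its peaks, and 30 others at least as many as Ago1. On the plus strand, 7 other genes reached the 5 clusters of Tnrc6a and 10 others the 4 of Tnrc6b, out of 173 with any. Tnrc6a, with 5 clusters against 14 in Cnot6, was thus among the plus-strand genes with the most. Ago4, on the minus strand, held 0 clusters, and Pabpc1, with minus-strand peaks, held 5 as did Tnrc6a. The part of the strand in the cluster numbers of the 8 genes was not tested.

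Merged with strand ignored, the 70 peaks gave 52 loci, of which 16 held peaks of at least 2 lists and 2 of 3 lists, both in Tnrc6a. The share of 30.8% compares with 27.8% of loci in all protein-coding spans. Of the loci of the Tnrc6 genes 9 of 12 were shared, against 70.3% of plus-strand loci in protein-coding spans. In the 5 genes with minus-strand peaks 7 of 40 were shared, against 17.9% of minus-strand loci. Read from PIPE-CLIP alone, 6 of 38 minus-strand clusters of the 8 genes overlapped another list, against 12.3% of minus-strand clusters in the whole list. On the plus strand it was 9 of 11 clusters, against 80.1%. Sharing in the 8 genes was therefore near that of all loci or clusters with peaks on the same strand. Those shares go by the strand of the peak, not of the gene, and include the 8 genes. Of the 34 loci found by PIPE-CLIP alone, 32 were on the minus strand.

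**Figure D3:**
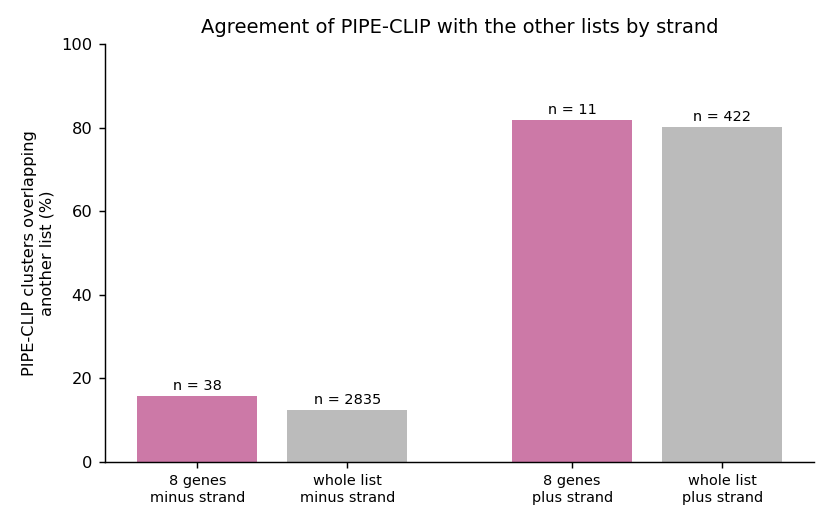
Share of PIPE-CLIP clusters that overlapped a peak of another list by at least 1 nt (y axis, %), for the 8 genes and for the whole list, on the minus and plus strands, with the number of clusters above each bar. Bars of the 8 genes, at 6 of 38 and 9 of 11 clusters, stand close to those of the list on each strand.

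At the 14 sites where PIPE-CLIP and Pyicoclip overlapped, the rank of a site also went with its strand, a comparison made after the values were seen. At the 6 minus-strand sites, in Ago1, Ago2, Cnot6 and Pabpc1, the PIPE-CLIP percentile was above the Pyicoclip percentile at each, by 14.2 to 72.7 points with a median of 45.0. At the 8 plus-strand sites of the Tnrc6 genes it was above at 1, the Tnrc6a site at 123169951, and the median difference was -22.2 points. Many peaks tie at low scores, so small score differences there are large in percentile. The Tnrc6c site at 117761841 scored 10 in both lists, at percentiles 14.1 in PIPE-CLIP and 24.2 in Pyicoclip. At the Tnrc6b site at 80936994, scores of 11 and 12 differed by -25.3 points. The groups of differences did not overlap at these few sites, several of which share a gene. Over all protein-coding spans they did, from -74.3 to 73.3 points on the minus strand and from -80.2 to 59.0 on the plus strand. Over all protein-coding spans PIPE-CLIP ranked the site higher in 77.2% of 276 minus-strand pairs and 34.6% of 231 plus-strand pairs, with medians of 13.3 and -5.69 points. The direction by strand in the 8 genes was thus that of the lists as a whole.

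**Figure D4:**
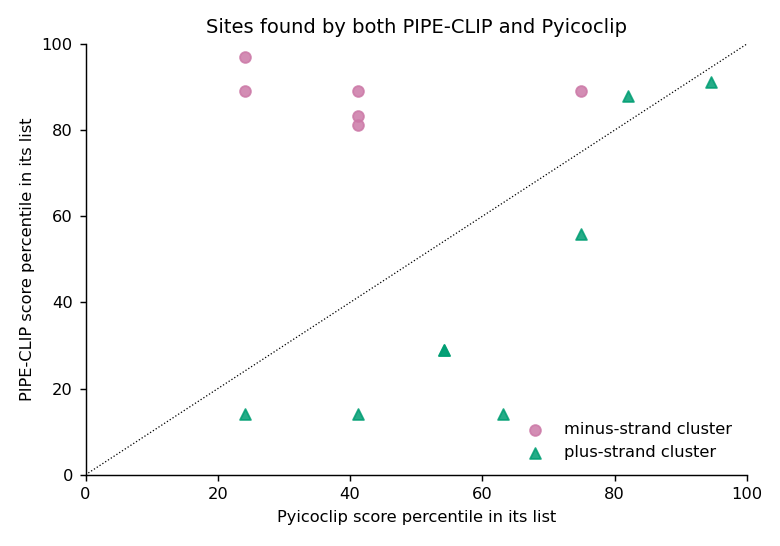
Score percentile within the PIPE-CLIP list (y axis) against that within the Pyicoclip list (x axis) for the 14 sites of the 8 genes found by both callers, with shape and colour giving the strand and the dotted line marking equal percentiles. The 6 minus-strand sites lie above the line and 7 of 8 plus-strand sites below it; a Tnrc6a and a Tnrc6b site share 1 point.

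Among 82 genes of the wider silencing pathway, the 8 included, 28 held a peak in any list and 18 in at least 2. Without the 8, a peak was held by 20 of 74 genes, or 27.0%, against 9.77% of protein-coding genes. In at least 2 lists were 10 of the 74, or 13.5%, against 3.99% of protein-coding genes. Both shares for protein-coding genes are over all 21900 annotated genes, whether expressed or not, and expression was not measured here. The median span of the 74 was 29285.5 nt, against 17146 nt over all protein-coding genes. These gene lists were chosen with earlier results of these data known. Of those 74 with a strand in the promoter table, 15 of 26 on the minus strand held a peak and 4 of 38 on the plus strand, against 14.4% and 5.19% of protein-coding genes. MicroRNA biogenesis had 7 of 17 genes with a peak, all 7 on the minus strand, and deadenylation 5 of 16 with Cnot6. Decapping and translational repression had 2 of 15, and 11 of these 15 genes are on the plus strand. No test was run on these lists, and the part of the strand and of span length in these shares was not tested.

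The 10 other pathway genes in at least 2 lists were found at several steps. In biogenesis they were Lin28a, which blocks let-7 maturation, with 12 peaks and a PIPE-CLIP score of up to 144, Ddx5, a helicase that works with Drosha, with 9 peaks, and Khsrp, which binds some precursors, with 2. Some Pyicoclip peaks of Ddx5, from 106780436, and of Lin28a, from 134003349, share a start and count separately. Trim71, an RNA-binding ubiquitin ligase of early embryos, held 11 peaks, with a PIPE-CLIP score of up to 43. Hsp90ab1, a chaperone that helps to load Argonaute, held 11 clusters and 1 Pyicoclip peak, and Fxr1, an RNA-binding relative of FMRP, 2 peaks. Gigyf1, a partner of the cap-binding repressor 4EHP, held 22 peaks in all 4 lists on the plus strand, more than any of the 8 genes. Larp4b held 4 peaks, with a CIMS peak scoring 13, and Larp1 held 2.

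Of the deadenylases outside the 8 genes, Parn was in 2 lists, with a Piranha peak of 20 nt and a Pyicoclip peak of 26 nt that overlap, a site of the same kind as that of Ago4. Cnot6l, the close relative of Cnot6, held 4 clusters in PIPE-CLIP alone, and Tob2 and Cnot2 held 3 and 1. Among the Argonaute and GW182 genes, 6 of 7 held peaks, against 9.77% of protein-coding genes, but these 6 were chosen for their peaks. Ago3 was the exception. Dicer1, which cuts precursors into mature microRNAs, held 2 PIPE-CLIP clusters with a score of up to 31.

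**Figure D5:**
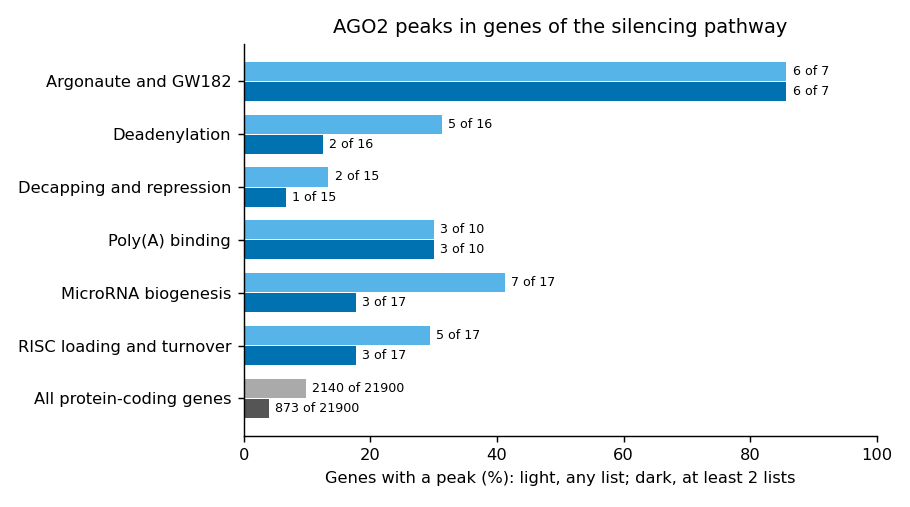
Share of genes with an AGO2 peak in any list (light bars) and in at least 2 lists (dark bars), in percent (x axis), for 6 lists of silencing genes and for all protein-coding genes (y axis, grey bars), with counts beside the bars. The Argonaute and GW182 list stands highest, at 6 of 7 genes, 6 of which were chosen for their peaks; decapping and repression stands lowest of the lists, at 2 of 15.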

How the data were processed

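Per the labels' protocols, RNA of 3 libraries was made into small RNA libraries, amplified for 20 to 24 PCR cycles and selected for inserts of 20 to 50 nt. Per the submitters' processing notes, cutadapt, Novoalign and mm10 were used. Tool versions, peak caller settings and how the libraries were pooled are not stated in the sources. The authors deposited 4 peak lists with a score per peak, used to describe and rank peaks within a list.

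Gene spans came from the RefSeq table of GRCm38.p6, whose coordinates are those of mm10, and gene strands from the RefSeq promoter table of that build (6 of 8 genes, otherwise the strand of the peak). Positions are counted from 1. Peaks overlapping by at least 1 nt, strand ignored, were merged into loci. The 8 genes and the pathway lists were chosen with earlier results of these data known. Named pathway genes were those in at least 2 lists, and others were named after their values were seen. Likeness to the gene with the most peaks was the summed absolute difference in peak number. Peak sequences were not analysed here. Span assignment was tested on simulated peaks planted well inside spans, and merging on overlapping pairs planted far apart. Peaks at the edge of a span or just outside it were not simulated. Calculations used Python 3.11.15, numpy 2.4.6, pandas 2.3.3 and matplotlib 3.10.9.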

Additional observations from a re-analysis of the deposited data

How the results depend on the processing

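Counts were recomputed under other rules, giving 41 values, of which 31 stayed within 1.5 times the reported value. Some of these could not change: rules that only remove peaks leave CIMS at 0, and none of the 70 peaks lay in a further span. Totals over the lists also repeat the counts per list, so the tally is not a measure of robustness. With peaks scoring at or above the list median, the 8 genes held 1 peak in Piranha, 7 in Pyicoclip, 26 in PIPE-CLIP and 34 in all, and 2 genes, Ago2 and Tnrc6a, were in at least 2 lists. Without PIPE-CLIP, 3 genes were in at least 2 lists (Ago4, Tnrc6a and Tnrc6b), 3 loci were shared, 12 of 20 placed peaks lay in the last 10% of the span, and 18 pathway genes held a peak. These settings use fewer peaks by construction. With peaks on the strand of the gene alone, PIPE-CLIP gave 32, since Ago2 and Pabpc1, for which no strand was used, drop out. Assigning peaks by any overlap or by the whole peak gave 70, as did the midpoint in exactly 1 span, and spans extended by 1000 nt gave 71. No paired analysis was possible because no value per library was used, and libraries could not be left out in turn for the same reason. The lists hold no peak scoring under 10, so a gene with no peak may still be bound.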
